A study of Mus musculus with 4 samples.

Results

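The 9 genes described here encode enzymes that supply the building blocks of DNA and the pyrimidine nucleotides behind them. They were chosen by symbol, namely Rrm1, Rrm2, Tyms, Tk1, Dut, Dck, Dctpp1, Cad and Umps, and all 9 were found among the 23763 genes of the deposited table. RNA came from spleens of C57BL/6J mice at baseline and was sequenced with directional libraries after removal of ribosomal RNA. There were 2 libraries labelled KLHL3-KI, from mice with a knock-in at Klhl3, the gene of a ubiquitin ligase adaptor, and 2 libraries labelled wild-type (WT). The series as a whole concerns Piezo1, potassium balance and Klhl3 in red blood cells and kidney. The knock-in allele, the age and sex of the mice, and whether the libraries of a group came from separate animals are not stated in the labels, so p-values measure only the spread between these libraries, which may be technical.

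Ribonucleotide reductase turns ribonucleotides into deoxyribonucleotides, and it joins a large subunit, RRM1, with a small subunit, RRM2 or RRM2B. Thymidine nucleotides are made anew by thymidylate synthase (TYMS) from dUMP, which dUTPase (DUT) provides, or are recovered from thymidine by the cytosolic kinase TK1. Deoxycytidine is recovered by DCK, DCTPP1 breaks down dCTP and modified forms of it, and CAD and UMPS carry out the first and the last steps of UMP synthesis. Several of these genes, Rrm2, Tyms and Tk1 among them, are known to be most active around S phase, and the mouse spleen holds dividing red cell precursors as well as lymphocytes.

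The promoter windows of 3 of the genes are shown because they hold the letters CCAAT on either strand, marked in capitals (ATTGG is CCAAT on the opposite strand). They are those of Rrm1 and Rrm2, which had the largest fold changes of the 9 genes, and of Dctpp1, which had the smallest. Each window runs from 250 bases before to 50 after the start in RefSeq, build GRCm38.p6: chr7:102441445-102441744 (plus strand) for Rrm1, chr12:24708004-24708303 (plus strand) for Rrm2 and chr7:127260618-127260917 (minus strand) for Dctpp1. The expression values were made on build GRCm39, so these positions apply to the promoter table alone.
Rrm1: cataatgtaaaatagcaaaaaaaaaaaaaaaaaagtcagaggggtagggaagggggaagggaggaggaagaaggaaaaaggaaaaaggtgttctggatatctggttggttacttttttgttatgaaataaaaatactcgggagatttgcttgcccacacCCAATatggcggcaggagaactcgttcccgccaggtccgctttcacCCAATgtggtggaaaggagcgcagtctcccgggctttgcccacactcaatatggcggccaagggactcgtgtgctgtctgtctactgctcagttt
Rrm2: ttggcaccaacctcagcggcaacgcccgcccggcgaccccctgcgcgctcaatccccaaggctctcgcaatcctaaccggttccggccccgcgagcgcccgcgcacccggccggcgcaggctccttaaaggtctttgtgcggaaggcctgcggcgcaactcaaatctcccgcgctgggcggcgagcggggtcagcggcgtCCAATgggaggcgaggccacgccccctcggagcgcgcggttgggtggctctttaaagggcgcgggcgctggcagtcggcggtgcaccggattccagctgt
Dctpp1: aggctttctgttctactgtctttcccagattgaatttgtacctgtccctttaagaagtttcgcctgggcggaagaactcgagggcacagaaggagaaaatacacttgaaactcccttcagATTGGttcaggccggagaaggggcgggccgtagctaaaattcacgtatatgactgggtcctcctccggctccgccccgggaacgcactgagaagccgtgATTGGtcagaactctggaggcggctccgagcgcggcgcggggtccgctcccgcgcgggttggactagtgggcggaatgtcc
The windows of Rrm1 and Dctpp1 each hold 2 such matches, and that of Rrm2 holds 1, which begins 50 bases before the start. CCAAT was found in 3 of the 9 windows, against 37.4% of all 32851 windows searched. The E2F letters TTTCCCGC, TTTCGCGC, TTTGCCGC or TTTGGCGC were in 0 of 9 windows and in 2.26% of all windows. The cell cycle homology letters TTTGAA were in 2 of 9 windows (Dck and Umps) and in 17.9% of all windows. The GC box letters GGGCGG were in 8 of 9 windows, Rrm1 being the exception, and in 35.7% of all windows. The bases G and C made up from 47.0% (Rrm1) to 75.0% (Dut) of the 9 windows. All windows searched, of 27025 genes, were not matched to these in base content or expression. Both strands were searched for each motif, and none of the matches in the 9 windows overlapped another. A match is a description of letters, and its absence says only that the letters are not in this window.

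All expression values are scaled read counts, that is, reads divided by 1 factor per library. The reads summed to 9586677 and 10933023 in KLHL3-KI libraries and to 8535483 and 8975415 in WT libraries. Markers of B cells, T cells and red pulp macrophages were detected in all 4 libraries. Klhl3 itself was at 2.53 and 1.36 in KLHL3-KI libraries and 3.02 and 4.67 in WT libraries (limma adjusted p = 0.0895), which checks no label, since the allele is not known. Of 16970 genes tested with limma on log2(value + 1), 2583 were higher and 1283 lower in KLHL3-KI spleen at a Benjamini-Hochberg adjusted p under 0.05. Leaving out WT replicate 2 left 1386 higher and 267 lower, leaving out WT replicate 1 left 1714 higher and 472 lower, and leaving out KLHL3-KI replicate 2 left 1946 higher and 786 lower. The split also depended on the scaling. There were 1912 higher and 3126 lower with equal total reads per library. After leaving out haemoglobin, immunoglobulin and mitochondrial genes there were 2087 and 2971. In that setting, here and below, the totals of the remaining genes were also made equal. After quantile normalization there were 2041 and 2369. Over all genes the log2 fold change had a median of -0.01 as deposited and of -0.16, -0.14 and -0.10 under those scalings, in that order.

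Transcripts of the enzymes were more abundant in KLHL3-KI spleen. Of the 9 genes, 8 rose and none fell in the limma test, in which 15.2% of all tested genes rose and 7.56% fell. Their log2 fold changes ran from 0.49 to 2.42 with a median of 1.11, against a median of -0.01 over all tested genes. For all 9 genes both KLHL3-KI values lay above both WT values, which was so for 32.8% of all tested genes, while in 31.9% both lay below. With edgeR on whole reads 8 of the 9 rose and none fell, where 14.9% of all genes rose and 7.98% fell, and with DESeq2 likewise 8 and none, where 11.9% rose and 4.52% fell. Together they took 0.0996% and 0.118% of the reads in KLHL3-KI libraries, against 0.0439% and 0.0412% in WT libraries. In bulk samples such as these, more cells that express a gene and more of its RNA per cell cannot be told apart.

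**Figure D1:**
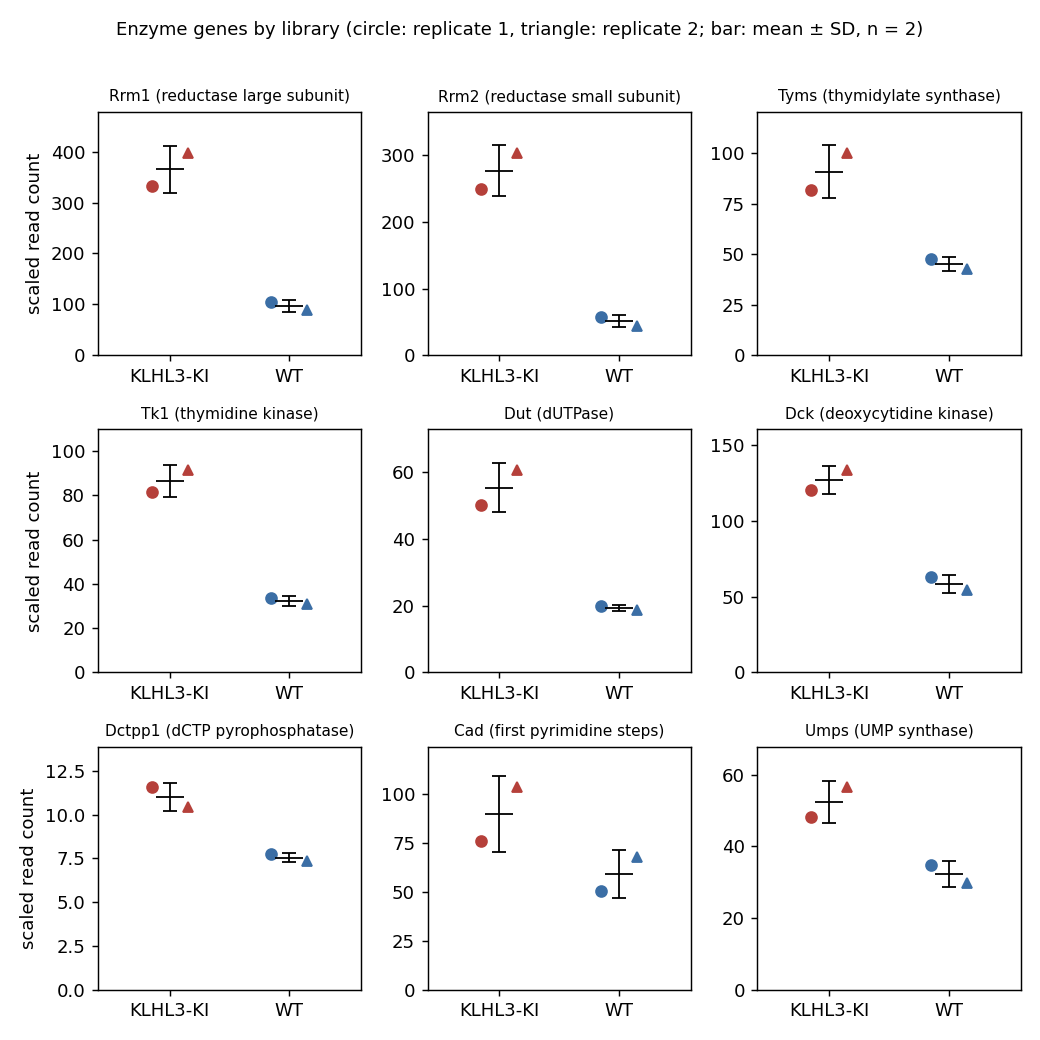
Scaled read counts (vertical axes, from 0) of the 9 enzyme genes in KLHL3-KI and WT spleen libraries, with a circle for replicate 1, a triangle for replicate 2 and a bar for the mean ± SD (n = 2). In every panel both KLHL3-KI points lie above both WT points, with the narrowest gap for Cad, whose lowest KLHL3-KI value is 1.12 times its highest WT value.

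The reductase subunits had the largest rises. Rrm2 (ENSMUSG00000020649), the small subunit that is made and broken down with the cell cycle, was at 249.8 and 304 in KLHL3-KI libraries, against 57.3 and 44.5 in WT libraries. The lowest KLHL3-KI value was 4.36 times the highest WT value. Its log2 fold change was 2.42 (SE 0.14, 95% confidence interval 2.11 to 2.73, limma adjusted p = 2.88e-06), larger than that of 99.4% of the tested genes. Rrm1 (ENSMUSG00000030978), the large subunit that carries the catalytic site, was at 332 and 398 in KLHL3-KI libraries, against 105 and 88.4 in WT libraries. The groups stood apart here too, with a log2 fold change of 1.91 (SE 0.12, interval 1.64 to 2.17, limma adjusted p = 4.68e-06). The ratio of Rrm2 to Rrm1 counts within a library was 0.751 and 0.764 in KLHL3-KI, against 0.546 and 0.504 in WT. That ratio does not depend on how libraries are scaled, and it was 1.44 times as high in KLHL3-KI libraries. The ratios given here are descriptions, and their differences between groups were not tested.

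The thymidine nucleotide genes rose by unequal amounts. Dut (ENSMUSG00000027203), which removes dUTP and leaves dUMP, was at 50.1 and 60.7 in KLHL3-KI libraries, against 20.03 and 18.7 in WT libraries (log2 fold change 1.46, SE 0.13, limma adjusted p = 3.64e-05). Tk1 (ENSMUSG00000025574), the thymidine kinase of dividing cells, was at 81.3 and 91.4 in KLHL3-KI libraries, against 33.8 and 30.7 in WT libraries (log2 fold change 1.39, SE 0.11, limma adjusted p = 1.99e-05). For both genes the lowest KLHL3-KI value was at least 2.41 times the highest WT value. Tyms (ENSMUSG00000025747), which makes dTMP from dUMP, was at 81.5 and 100.1 in KLHL3-KI libraries, against 47.5 and 42.6 in WT libraries. Its values did not overlap between the groups either, and its log2 fold change was 0.99 (SE 0.12, interval 0.71 to 1.27, limma adjusted p = 3.85e-04).

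Ratios within a library set these genes against each other. The ratio of Rrm2 to Tyms counts was 3.06 and 3.04 in KLHL3-KI libraries, against 1.20 and 1.05 in WT libraries. The ratio of Tk1 to Tyms was 0.997 and 0.913 in KLHL3-KI, against 0.711 and 0.722 in WT, and that of Dut to Tyms was 0.615 and 0.606 in KLHL3-KI, against 0.421 and 0.439 in WT. Each of these ratios to Tyms was higher in both KLHL3-KI libraries than in either WT library. In the GENCODE M21 annotation, exons of Tk1 share 83 bases with Afmid on the opposite strand, which was at 24.1 and 26.7 in KLHL3-KI libraries and 11.4 and 11.3 in WT libraries. No label says whether the counting used the strand, so part of either gene's reads may belong to the other. Exons of Umps likewise share 213 bases with Gm15829 on the opposite strand. Gm15829 was at 0.771 and 0.195 in KLHL3-KI libraries and 0.112 and 0.311 in WT libraries.

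The deoxycytidine genes differed from each other. Dck (ENSMUSG00000029366), a kinase known for its high activity in lymphoid tissue, was at 121 and 134 in KLHL3-KI libraries, against 62.8 and 54.3 in WT libraries. It rose by 1.11 on the log2 scale (SE 0.11, interval 0.86 to 1.35, limma adjusted p = 8.06e-05). In the same libraries the summed B cell markers were 2191 and 1648 in KLHL3-KI and 2854 and 2939 in WT, and 6 of 7 of them fell. The summed T cell markers were 236 and 211 in KLHL3-KI and 425 and 382 in WT, and 8 of 8 fell. Of all tested genes, 7.56% fell. Markers of erythroid precursors, the neutrophil lineage and megakaryocytes, given below, rose. The part of any of these cells in the level of Dck was not tested. Dctpp1 (ENSMUSG00000042462), the dCTP pyrophosphatase, had the fewest reads of the 9 genes, at 105 and 107 in KLHL3-KI and 69 and 71 in WT libraries. Its scaled counts were 11.6 and 10.4 in KLHL3-KI libraries, against 7.72 and 7.37 in WT libraries. The groups did not overlap, but the log2 fold change of 0.49 (SE 0.16, interval 0.13 to 0.85) did not pass (limma adjusted p = 0.0556). It passed with a minimum mean value of 5 (limma adjusted p = 0.0479) and with a robust variance model (0.0458), and the adjusted p reached 0.330 among the other alternatives.

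The genes of UMP synthesis rose least among those called. Umps (ENSMUSG00000022814), whose product carries out the last 2 reactions of the pathway, was at 48.3 and 56.6 in KLHL3-KI libraries, against 34.8 and 29.8 in WT libraries. The groups did not overlap, and its log2 fold change was 0.68 (SE 0.13, interval 0.40 to 0.97, limma adjusted p = 0.00416). Cad (ENSMUSG00000013629), whose product joins the first 3 activities in a single protein, was at 76.1 and 103 in KLHL3-KI libraries, against 50.5 and 67.8 in WT libraries. Its log2 fold change of 0.59 had the largest SE of the 9 genes, 0.17, and passed narrowly (interval 0.21 to 0.97, limma adjusted p = 0.0322). The ratio of Cad to Umps was 1.57 and 1.83 in KLHL3-KI libraries, against 1.45 and 2.28 in WT libraries, so these ratios overlapped. The call of Cad was lost in 7 of 17 alternatives. In these it had a limma adjusted p of 0.109 without KLHL3-KI replicate 2 (log2 fold change 0.37) and 0.242 without WT replicate 1 (0.38), and of 0.0902 after quantile normalization, 0.0927 with equal totals, 0.0504 after leaving out haemoglobin, immunoglobulin and mitochondrial genes, 0.125 with no variance trend and 0.0635 with robust variance. The call of Umps was lost without WT replicate 2 (limma adjusted p = 0.0656).

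**Figure D2:**
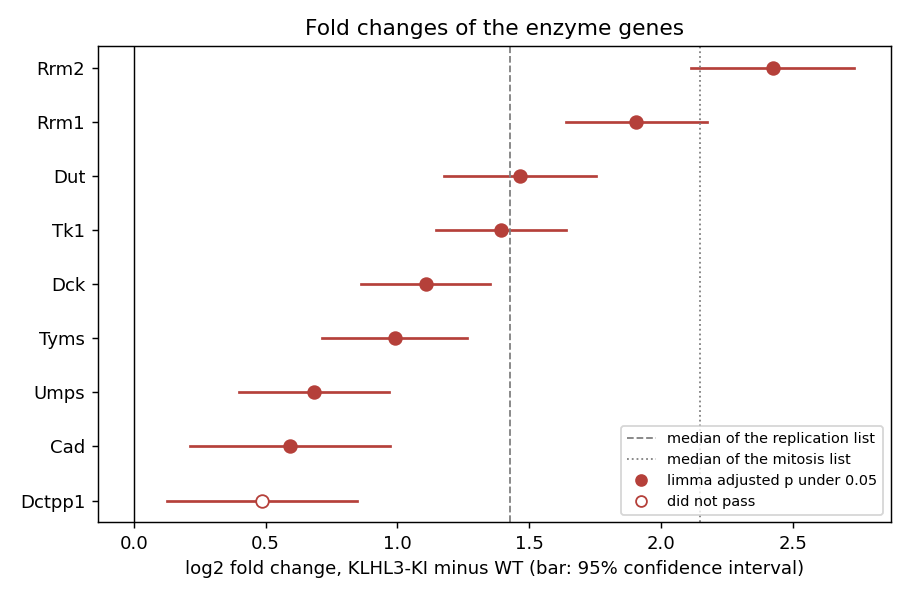
Log2 fold changes of the 9 enzyme genes (horizontal axis, KLHL3-KI minus WT) with 95% confidence intervals from limma, filled where the adjusted p was under 0.05. The dashed and dotted lines mark the medians of the replication and mitosis lists, 1.43 and 2.15; Rrm2 and Rrm1 stand at 2.42 and 1.91, and the intervals of Umps, Cad and Dctpp1, at 0.68, 0.59 and 0.49, lie wholly below those of the reductase genes.

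Levels were compared between genes as scaled counts per kilobase of the main annotated transcript of GENCODE M21. In KLHL3-KI spleen Rrm2 was highest at 126 ± 17.4 per kilobase, followed by Rrm1 at 91.4 ± 11.6, Tk1 at 59.97 ± 4.99 and Dck at 41.3 ± 2.97 (SD, n = 2). Their SD ranges did not overlap. In WT spleen the same 4 genes were at the top, with Rrm1 at 24.2 ± 2.90 per kilobase, Rrm2 at 23.2 ± 4.11, Tk1 at 22.4 ± 1.50 and Dck at 19.01 ± 1.95 (SD, n = 2). There the SD ranges of neighbours in the order overlapped. Tyms and Dut followed in KLHL3-KI spleen at 28.7 ± 4.16 and 28.4 ± 3.83 per kilobase, which did not differ beyond their spread. Dctpp1 at 16.3 ± 1.20, Umps at 15.1 ± 1.67 and Cad at 12.6 ± 2.71 came last. With the length of all annotated exons in place of 1 transcript, Rrm2 was first in both groups, in WT spleen in place of Rrm1. Cad stayed last in KLHL3-KI spleen, and the other places changed. Tk1 was then number 5 in KLHL3-KI spleen and number 9, the last, in WT spleen. Rrm1 was number 3 in KLHL3-KI and number 5 in WT. The order thus depends on the length used, in WT spleen also for the first place.

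Replicates of a group differed in the same direction for most of the genes. In 8 of 9, Dctpp1 being the exception, KLHL3-KI replicate 2 was above replicate 1, as it was for 54.3% of all tested genes. In 8 of 9, Cad being the exception, WT replicate 1 was above replicate 2, as it was for 51.8% of all tested genes. Markers of other cells moved with the group in the same libraries. All 10 erythroid precursor markers rose, with a summed level of 6372 and 7188 in KLHL3-KI and 1691 and 1336 in WT libraries. All 8 markers of the neutrophil lineage, S100a8 and S100a9 among them, rose, with sums of 1326 and 1798 in KLHL3-KI and 143 and 64.0 in WT. All 5 megakaryocyte markers rose, with sums of 296 and 373 in KLHL3-KI and 128 and 120.1 in WT. No marker of these 3 lists was at 0 in any library, and their part in the rise of the enzyme genes was not tested. Of 5 markers of germinal centre B cells, another dividing population of the spleen, none rose and 2 fell, with sums of 35.0 and 28.0 in KLHL3-KI and 44.0 and 47.2 in WT.

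Set against DNA replication genes, the enzyme genes stood higher, level or lower, in the order of their fold changes. The replication list holds 21 genes of the helicase, the polymerases and their loaders, of which 20 rose, with a median log2 fold change of 1.43. Rrm2 came to 11.3% and 11.3% of the summed replication genes in KLHL3-KI libraries, against 5.97% and 5.09% in WT libraries. Rrm1 came to 15.1% and 14.8% in KLHL3-KI and 10.9% and 10.1% in WT. Both subunits thus stood higher relative to the replication genes in KLHL3-KI libraries. Tk1 was at 3.68% and 3.39% in KLHL3-KI and 3.52% and 3.52% in WT, where the groups overlapped. Dut was at 2.27% and 2.25% in KLHL3-KI and 2.09% and 2.14% in WT. The other 5 genes had a lower share in both KLHL3-KI libraries than in either WT library. Tk1, whose share overlapped, had a log2 fold change above that of 96.1% of the tested genes. A lower share against this list is thus not particular to these 5 genes, and its frequency over all tested genes was not counted. Tyms was at 3.69% and 3.72% in KLHL3-KI and 4.95% and 4.87% in WT, and Cad was at 3.45% and 3.84% in KLHL3-KI and 5.26% and 7.75% in WT.

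**Figure D3:**
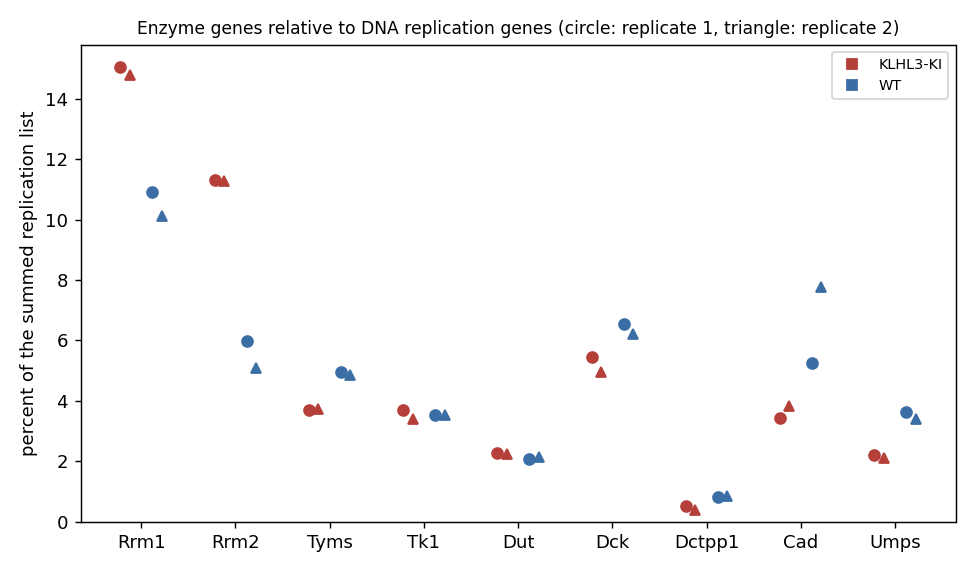
Scaled read count of each enzyme gene as a percent of the summed counts of 21 replication genes in the same library (vertical axis, from 0), for KLHL3-KI and WT libraries, with a circle for replicate 1 and a triangle for replicate 2. Rrm1, Rrm2 and, by a small margin, Dut are higher in both KLHL3-KI libraries, Tk1 overlaps between the groups, and Tyms, Dck, Dctpp1, Cad and Umps are lower in both KLHL3-KI libraries.

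Other enzymes of nucleotide metabolism moved less uniformly. Over 5 further lists with 47 tested genes, 22 rose and 3 fell, with a median log2 fold change of 0.33, where 15.2% of all tested genes rose and 7.56% fell. The number that rose was 14 with equal totals, 11 with no variance trend, 14 without KLHL3-KI replicate 2, 12 without WT replicate 1 and 9 without WT replicate 2. The number that fell ran from 0 to 5 over the alternatives.

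Among 13 partners of the reductase and of thymidylate synthesis, 9 rose and 1 fell. The folate enzyme genes Mthfd1 and Mthfd2 rose by 1.41 (SE 0.16) and 0.88 (SE 0.13) on the log2 scale. Dtymk, which phosphorylates dTMP, rose by 0.78 (SE 0.12, limma adjusted p = 0.00186). Rrm2b, the small subunit that supplies deoxynucleotides outside S phase, was the gene that fell, at 30.4 and 31.6 in KLHL3-KI libraries, against 42.1 and 42.3 in WT libraries (log2 fold change -0.43, SE 0.11, limma adjusted p = 0.0171). This call was lost with no variance trend (limma adjusted p = 0.0612), with DESeq2 (adjusted p = 0.0690) and without WT replicate 1 (0.0939) or 2 (0.115).

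Of 9 tested salvage genes, 4 rose and none fell. Uck2, a uridine and cytidine kinase, was at 59.0 and 79.7 in KLHL3-KI libraries, against 32.6 and 34.3 in WT libraries (log2 fold change 1.02, SE 0.14, limma adjusted p = 8.26e-04). Adk, the adenosine kinase, rose by 0.60 (SE 0.11, limma adjusted p = 0.00455), a call lost without WT replicate 2 (0.0563). Hprt, which recovers purine bases, rose by 0.41 (SE 0.11, limma adjusted p = 0.0266), a call lost in 7 of 17 alternatives. Cda, which deaminates cytidine, had 0 to 4 reads per library and was not tested.

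Of 9 tested genes of nucleotide breakdown and pool cleaning, 1 rose and 1 fell. Samhd1, which degrades deoxynucleotides and is known to act in cells that do not divide, was at 308 and 314 in KLHL3-KI libraries, against 441 and 409.8 in WT libraries (log2 fold change -0.45, SE 0.09, limma adjusted p = 0.00641). This call was lost with no variance trend (limma adjusted p = 0.0609) and without WT replicate 1 (0.0645). The ratio of Rrm2 to Samhd1 was 0.811 and 0.967 in KLHL3-KI libraries, against 0.130 and 0.109 in WT libraries. Itpa, which clears inosine triphosphate, rose by 0.46 (SE 0.14, limma adjusted p = 0.0486), a call lost in 11 of 17 alternatives. Dpyd, which starts pyrimidine breakdown, had a log2 fold change of -0.32 (SE 0.23) that did not pass (limma adjusted p = 0.359).

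Purine synthesis genes had smaller fold changes than Rrm1, Rrm2, Tyms, Tk1, Dut and Dck. Of 13 tested, 7 rose and none fell, and their log2 fold changes lay between -0.03 and 0.82, the median being 0.48. Ppat, which starts the pathway, was at 65.2 and 68.5 in KLHL3-KI libraries, against 43.1 and 32.4 in WT libraries (log2 fold change 0.82, SE 0.14, limma adjusted p = 0.00240). Paics and Pfas, enzymes of the middle steps, rose by 0.77 (SE 0.11) and 0.74 (SE 0.13), of which Pfas lost its call without WT replicate 1 (limma adjusted p = 0.0513). Of the other pyrimidine steps, Ctps, which makes CTP, was at 36.7 and 42.8 in KLHL3-KI libraries, against 18.7 and 19.7 in WT libraries (log2 fold change 1.01, SE 0.13, limma adjusted p = 3.97e-04). Dhodh, the mitochondrial step between those of CAD and UMPS, was at 11.1 and 13.1 in KLHL3-KI libraries, against 9.73 and 15.3 in WT libraries, with a log2 fold change of -0.01 (SE 0.21) that missed the threshold (limma adjusted p = 0.976).

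**Figure D4:**
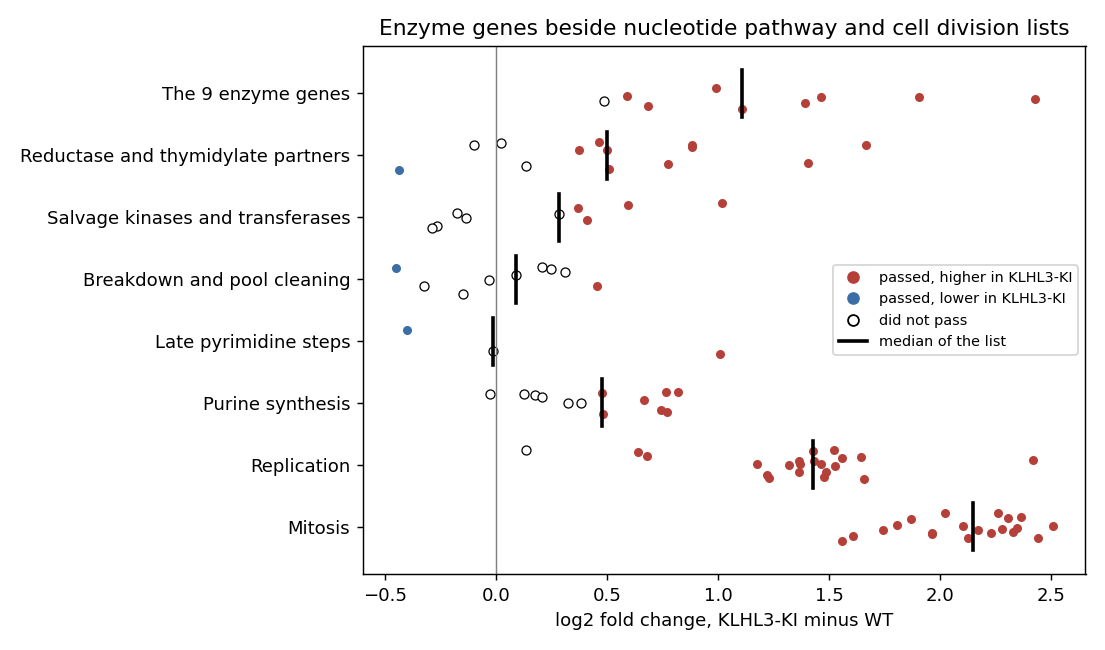
Log2 fold changes (horizontal axis, KLHL3-KI minus WT) of the 9 enzyme genes, 5 lists of other nucleotide genes, and replication and mitosis genes, with 1 point per tested gene, filled where the limma adjusted p was under 0.05, and a bar at each list's median. The median is 1.11 for the 9 enzyme genes, 0.50, 0.29, 0.09, -0.01 and 0.48 for the 5 lists from top to bottom, 1.43 for replication and 2.15 for mitosis.

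Related enzymes or subunits moved unequally. The ratio of Rrm2 to Rrm2b counts was 8.22 and 9.63 in KLHL3-KI libraries, against 1.36 and 1.05 in WT libraries, a 7.43-fold difference. The ratio of Tk1 to Tk2, the mitochondrial thymidine kinase, was 2.31 and 2.50 in KLHL3-KI, against 0.818 and 0.677 in WT. Tk2 itself was at 35.2 and 36.5 in KLHL3-KI and 41.3 and 45.4 in WT libraries, and its log2 fold change of -0.26 (SE 0.11) missed the threshold (limma adjusted p = 0.117). The ratio of Ctps to Ctps2, the other CTP synthase, was 1.11 and 1.54 in KLHL3-KI, against 0.447 and 0.507 in WT. Ctps2 was called lower (log2 fold change -0.40, SE 0.12, limma adjusted p = 0.0448), a call lost in 6 of 17 alternatives. Other pairs differed less. Shmt2 over Shmt1, serine hydroxymethyltransferases, was at 3.36 and 4.38 in KLHL3-KI and 2.29 and 3.28 in WT. Adss over Adssl1, adenylosuccinate synthases, was at 5.58 and 5.05 in KLHL3-KI and 5.20 and 4.90 in WT, where the groups overlapped. The pairs and which gene stands on top, and Rrm2b, Dtymk and Tk2, were chosen after their values were seen, so a count of pairs by direction would follow from that choice.

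**Figure D5:**
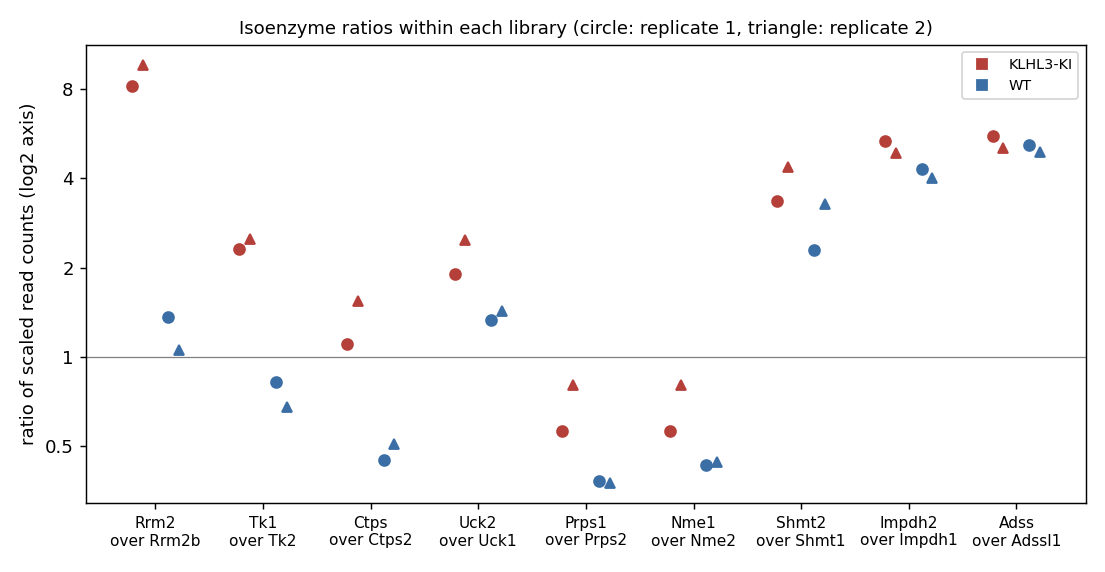
Ratio of the scaled read counts of 9 pairs of related enzymes within each library (vertical axis, log2 scale), for KLHL3-KI and WT, with a circle for replicate 1 and a triangle for replicate 2. The ratio of Rrm2 to Rrm2b shows the widest gap, with 8.22 and 9.63 in KLHL3-KI against 1.36 and 1.05 in WT, while the ratios of Adss to Adssl1 overlap between the groups.

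The genes whose profile was most like the mean profile of the 9 enzyme genes were Cbx5, Ezh2, Pqlc1, Atad2 and Tab3, among 7473 genes whose mean value reached 20. The likeness was the mean absolute difference of centred log2(value + 1) over the 4 libraries, and it ran from 0.00749 for Cbx5 to 0.0240 for Tab3. Cbx5, a heterochromatin protein gene, was at 376 and 444 in KLHL3-KI libraries, against 182 and 168 in WT libraries. Ezh2, a histone methyltransferase gene, was at 82.7 and 97.6 in KLHL3-KI libraries, against 39.8 and 37.2 in WT libraries. Their log2 fold changes were 1.22 and 1.20. Genes picked for a profile like the mean of the enzyme genes must have fold changes like that mean, so these values follow from the choice.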

How the data were processed

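In the authors' deposited table each gene has a normalized signal in each library. Per the submitters' processing notes, Trimmomatic 0.38, RSEM 1.3.0, Bowtie2 and edgeR were used with build GRCm39; the annotation and the strand setting are not given in these sources. Every value was a whole multiple of what 1 read is worth (100.0% within 0.001), so whole reads were recovered; 1 read was worth 0.110 and 0.0974 in KLHL3-KI and 0.112 and 0.104 in WT libraries. Symbols came from a name table that matched 23605 of 23763 identifiers (99.3%).

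Genes whose mean value reached 1 were tested, 16970 in all, the 9 enzyme genes among them. Values were compared as log2(value + 1), a scale that understates the change of low genes, with limma 3.58.1 (R 4.3.3, two-sided, with a mean-variance trend). Calls were made at a Benjamini-Hochberg adjusted p under 0.05 over all tested genes. The procedure was also run on simulated data with few changed genes, in equal numbers up and down, and a single spread setting for every gene. These data differ from that setting, so the simulation does not show how well the procedure does here. Recovered reads were also tested with edgeR 4.0.16 (quasi-likelihood), which called 2533 genes higher and 1355 lower in KLHL3-KI, and with DESeq2 1.42.0. Other alternatives changed the pseudocount, filter, scaling, variance model, threshold or libraries, or added a replicate block. The read totals and the 2 libraries per group limit the precision.

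The members and lists were chosen with earlier results of these data known. By rule, the text named the 9 enzyme genes, the 3 genes of each nucleotide list with the lowest limma p, and the 5 nearest profiles, passing over predicted genes, pseudogenes, histone genes and receptor segments. One gene that this rule takes is not reported here. Near-identical copies such as processed pseudogenes may share reads with the genes named.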

Additional observations from a re-analysis of the deposited data

How the results depend on the processing

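Rrm1, Rrm2, Tyms, Tk1, Dut and Dck were called higher in all 17 alternatives, with log2 fold changes between 0.82 (Tyms) and 2.60 (Rrm2). The 9 genes had positive log2 fold changes in each alternative, and 7 to 9 were called higher and none lower; 7 to 8 were called with 1 library left out. With 1 library left out, 9 to 23 partner genes rose and 0 to 3 fell, and over all genes 1386 to 2903 rose and 267 to 1627 fell; the lone library of a group is then assumed to vary like the other group's. The lowest of these counts over all genes came without WT replicate 2. Without WT replicate 1 the counts were 1714 and 472, and 786 fell without KLHL3-KI replicate 2. Partner genes called higher numbered 14 with equal totals and 11 with no variance trend. Those called lower numbered 5 after quantile normalization, with equal totals and after leaving out haemoglobin, immunoglobulin and mitochondrial genes, 0 with no variance trend and 1 with DESeq2. Over all genes, those called lower numbered 2369, 3126 and 2971 under those 3 scalings, 659 with no variance trend, 767 with DESeq2 and 1991 at an adjusted p under 0.1. The log2 fold change of Dhodh, which was not called, became 0.10 without KLHL3-KI replicate 1 and 0.29 without WT replicate 2, within a range of -0.31 to 0.29 when 1 library was left out. The cause of these changes was not tested.

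The titles gave the replicate numbers, and nothing in the labels says that they pair the libraries. The library names carry other numbers, under which KLHL3-KI and WT share a single number, so they could give no block, and KLHL3-KI and WT replicate 1 have different numbers there. By title number, the replicate differences of the KLHL3-KI and WT libraries had a correlation over genes of -0.03. With a replicate block by title number, 8 enzyme genes, 21 partner genes and 2715 genes in all rose, and 0, 3 and 1415 fell. Depth limits Dctpp1 most among the 9 genes, at 69 to 107 reads per library.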

Other observations

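Against the summed erythroid precursor markers of the same library, Rrm2 alone of the 9 enzyme genes had a higher share in both KLHL3-KI libraries, at 3.92% and 4.23%, against 3.39% and 3.33% in WT libraries. The other 8 genes had a lower share in both KLHL3-KI libraries than in either WT library. Among these 8, Rrm1 had the largest log2 fold change, which was above that of 98.2% of the tested genes. A lower share against this list is thus not particular to the enzyme genes, and its frequency over all tested genes was not counted. Rrm1 was at 5.22% and 5.54% in KLHL3-KI and 6.20% and 6.62% in WT, and Cad was at 1.19% and 1.44% in KLHL3-KI and 2.98% and 5.07% in WT. The place of Rrm2 rests on Alas2, which rose by 0.76, where the list had a median log2 fold change of 2.58. Alas2 made up 844 and 855 of the summed 6372 and 7188 in KLHL3-KI libraries. In WT libraries it made up 546 and 459 of 1691 and 1336. With Alas2 left out of the sum, Rrm2 too had a lower share in both KLHL3-KI libraries. Of the 21 replication genes, Pold1, the catalytic subunit of polymerase delta, did not pass, at 70.2 and 71.6 in KLHL3-KI libraries and 62.7 and 66.2 in WT libraries (log2 fold change 0.14, SE 0.10, limma adjusted p = 0.348). Cdc6, which helps to load the helicase, rose by 2.42 (SE 0.17) on the log2 scale. Pold1 and Cdc6 were singled out after their values were seen.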
